A study of Avicennia germinans with 18 samples.

Results

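Leaf and stem libraries of the same arid-forest seedlings were compared in Avicennia germinans, a mangrove tree that secretes salt through its leaves. The comparison used 6 of the 18 libraries of the series, chosen by their labels: arid leaves 1, 2 and 3 against arid stems 1, 2 and 3, with leaf and stem of equal number taken from 1 seedling. The arid forest is 1 of a pair of sites that the series contrasts by freshwater supply, salt, sunlight and temperature, and the humid forest is the other. All seedlings germinated and grew in the field, were potted in mangrove soil (3 L) and stood shaded and watered for 72 hours before harvest, so leaf and stem shared this history. Each humid group and each root group also held 3 libraries, which entered the fit for its estimate of the spread. No age, genotype or treatment other than the forest is labelled.

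Leaves carry the photosynthetic tissue of the plant and, in Avicennia, the salt glands of the leaf surface. Stems carry water and salt upward in the xylem and sugars in the phloem, around a cambium that adds vascular tissue. Libraries of whole organs average over all of these cells, so fewer cells of a type and less RNA per cell cannot be told apart. No gene names accompany the identifiers, so the organ labels could not be checked against marker genes. Transcripts are given by identifier, of which some carry the prefix non_cod, a prefix that the sources used here do not define.

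Arid leaves held between 7.42 and 16.8 M uniquely mapped reads (M for mega) and arid stems between 12.0 and 16.7 M. Levels are in CPM, reads per M reads after scaling, and compare 1 transcript between libraries, not transcripts of unequal length with each other. A transcript with no read could still be present at up to 3 counts, for counting error only. Before scaling, this floor was between 0.179 and 0.404 reads per M reads in arid leaves and between 0.180 and 0.25 in arid stems. Arid stems varied most: the biological coefficient of variation was 43.7% among arid leaves and 56.1% among arid stems, against 38.9% among humid leaves and 33.5% among humid stems. Arid stem 2 stood apart by correlation, while arid stem 1 had the fewest transcripts detected among the arid stems (38092). Across all tested transcripts the log2 CPM of arid stem 2 had a Pearson's r of 0.878 with the leaf of its own seedling. With arid stems 1 and 3 its r was 0.785 and 0.827, whereas arid stems 1 and 3 correlated at 0.870. Arid stems 1 and 3 were also close to their own leaves, at 0.852 and 0.856, and closer to them than to arid stem 2. No 2 arid replicates looked like 1 library counted again, the chi-square between their counts being at least 52.3 per degree of freedom.

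Between leaf and stem of the arid forest, 200 of 40897 tested transcripts (0.489%) differed by the quasi-likelihood test of edgeR with the seedling as a block, at an adjusted p under 0.05. Of these, 91 (0.223% of those tested) were higher in leaf and 109 (0.267%) were lower in leaf than in stem. All 91 were higher in leaf than in the stem of the same seedling in each of the 3 seedlings, and 108 of the 109 were lower in leaf in each. The 3 leaves lay entirely above the 3 stems for 87 of the 91 and entirely below them for 94 of the 109. Among all tested transcripts, leaves lay entirely above stems for 9.19% and entirely below them for 6.95%. The calls on the same libraries favour such a separation. The median log2 fold change was 2.63 for those higher in leaf (quartiles 1.90 and 5.05) and -2.87 for those lower in leaf (quartiles -4.03 and -2.10). As absolute values the median was 2.75 for the called and 0.64 for all tested transcripts. With transcripts that had no read in the other organ set at their bound from the unscaled floor, the medians were 2.52 and -2.82. An unadjusted p under 0.05 was found for 7182 transcripts (17.6%), and 10 had an adjusted p under 0.01 by edgeR. The number called depended on single libraries, being 1345 without arid stem 2, 87 without arid leaf 2, 4 without arid leaf 3, 12 without arid stem 1, 22 without arid stem 3 and 203 without arid leaf 1, and it was 74 without the seedling block and 3373 by DESeq2, which called all of the 200 in the same direction.

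**Figure D1:**
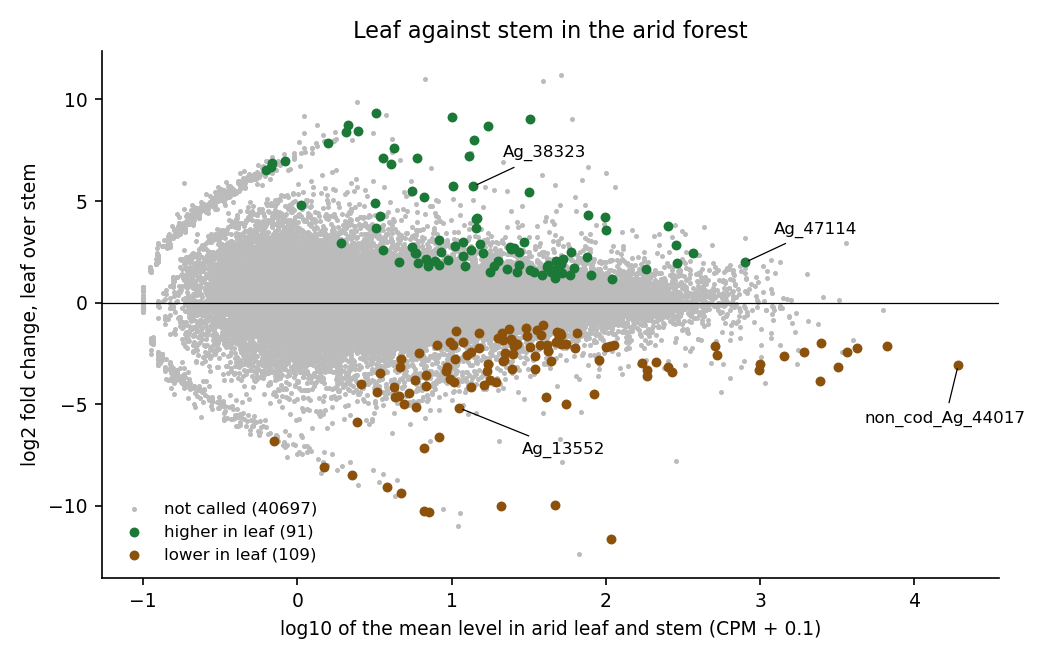
Log2 fold change of arid leaf over arid stem (vertical axis) against the log10 of the mean level in both organs (CPM + 0.1, horizontal axis), 1 point per tested transcript. The 91 transcripts called higher in leaf are green, the 109 called lower in leaf are brown, and the brown points at the far right are the abundant transcripts led by non_cod_Ag_44017.

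The transcripts higher in leaf were of moderate level. Their mean in arid leaves had a median of 26.9 CPM and reached from 1.05 to 1254 CPM, and 12 of the 91 were at 100 CPM or more. Those lower in leaf had a median of 38.5 CPM in arid stems, with a range from 1.22 to 33913 CPM, and 27 of the 109 were at 100 CPM or more. Grouped by the higher organ mean, 39 of 17382 transcripts from 1 to 10 CPM were called (0.224%), 122 of 14645 from 10 to 100 CPM (0.833%), 27 of 2617 from 100 to 1000 CPM (1.03%) and 12 of 80 at 1000 CPM or more (15%). Of those 12, 11 were lower in leaf. Called or not, 55 of the 61 tested transcripts that averaged 1000 CPM or more in arid stems had a lower mean in leaf. Their choice on a high stem mean favours this count. In arid leaves 48 tested transcripts averaged 1000 CPM or more, and 29 exceeded that level in both organs. The prefix non_cod was carried by 24 of the 91 (26.4%) and by 24 of the 109 (22%), against 32.5% of the tested transcripts.

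By a rule on level and fold, 4 transcripts are described in full. Ag_47114 had the highest mean in arid leaves among the eligible transcripts higher in leaf. It stood at 726, 1631 and 1404 CPM in arid leaves 1, 2 and 3, against 165, 508 and 329 CPM in arid stems 1, 2 and 3. The groups did not overlap, and the leaf exceeded its own stem 4.39-fold, 3.21-fold and 4.27-fold, so that the 3 seedlings differed little in ratio. Its log2 fold change came to 1.97 (SE 0.35, edgeR adjusted p 0.034). Humid leaves averaged 1228 ± 460 CPM and humid stems 215 ± 40.1 CPM (SD, n = 3 each), which gave a humid log2 fold change of 2.49 (SE 0.35, adjusted p 0.010 by edgeR). The difference between the forests was not called (-0.51, SE 0.47, edgeR adjusted p 0.79). Arid roots stood at 743, 1561 and 546 CPM and so lay above all arid stems.

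Ag_38323 had the largest fold among the eligible transcripts higher in leaf. Arid leaves 1, 2 and 3 had 25.4, 4.93 and 50.7 CPM, and arid stems 1, 2 and 3 had 0.290, 0.489 and 0.458 CPM from 4, 5 and 6 reads. Leaf and stem did not overlap, but arid leaf 2 lay well under the other arid leaves. Over all pairs the log2 fold change came to 5.72 (SE 0.83, edgeR adjusted p 0.022). In humid leaves 1, 2 and 3 it had 27.6, 25.9 and 28.9 CPM, a far narrower range than in arid leaves, against 1.74, 0.773 and 0.510 CPM in humid stems. Its humid log2 fold change of 4.87 (SE 0.76, adjusted p 0.014 by edgeR) differed from the arid one by 0.85 (SE 1.02, edgeR adjusted p 0.84). Arid roots held 1.24, 0.580 and 0.207 CPM, so leaf was the organ with the high level in both forests.

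Lower in leaf, non_cod_Ag_44017 took more reads of the arid stems than any other transcript. It had 1681, 4851 and 7121 CPM in arid leaves 1, 2 and 3, against 24127, 30110 and 47501 CPM in arid stems 1, 2 and 3. All leaves lay below all stems, and leaf was below its own stem 14.4-fold, 6.21-fold and 6.67-fold. This gave a log2 fold change of -3.05 (with SE 0.48, edgeR adjusted p 0.028). In the humid forest the seedlings went different ways: humid leaves 1, 2 and 3 had 5498, 3762 and 5468 CPM, against 9293, 1719 and 5414 CPM in humid stems 1, 2 and 3. The humid log2 fold change came to 0.06 (SE 0.45, edgeR adjusted p 0.96). The arid estimate was lower than the humid one by 3.12 on the log2 scale (SE 0.65), which was not called (edgeR unadjusted p 0.00034, adjusted p 0.23). Arid roots at 2315, 2632 and 7825 CPM lay within or near the leaf range, so the arid stems alone held the high level among the arid organs.

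Ag_13552 had the largest fold among the eligible transcripts lower in leaf. Arid leaves 1, 2 and 3 had 0.517, 0.882 and 0.270 CPM from 4, 12 and 4 reads, against 39.8, 9.48 and 15.3 CPM in arid stems 1, 2 and 3. Leaf lay below its own stem 77.0-fold, 10.7-fold and 56.5-fold, the smallest ratio being that of seedling 2. Its log2 fold change came to -5.18 (SE 0.84, edgeR adjusted p 0.031). Humid leaves 1, 2 and 3 had 0, 0 and 6 reads, and humid stems stood at 12.8, 5.29 and 10.7 CPM (edgeR adjusted p 0.012). Arid roots reached 15.4, 36.3 and 36.8 CPM, above all arid leaves.

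For each of these 4 transcripts the sign was the same under all 19 alternatives tried, while the adjusted p was above 0.05 under 9 of them for Ag_47114, 7 for Ag_38323, 10 for non_cod_Ag_44017 and 8 for Ag_13552. It reached at most 0.38, in the edgeR fit of the 6 arid leaf and stem libraries without the block.

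**Figure D2:**
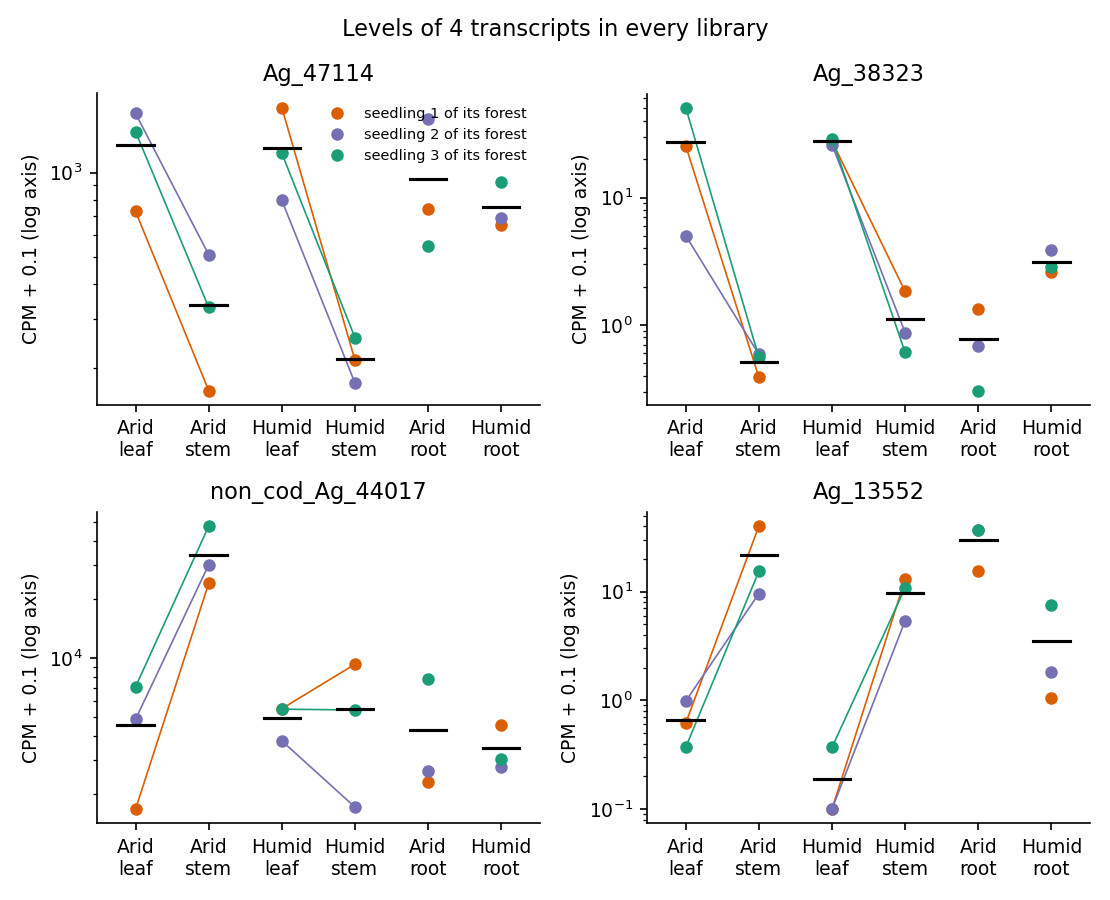
Level of the 4 transcripts in every library (CPM + 0.1, log axis) by forest and organ, with black bars at group means and lines joining leaf and stem of 1 seedling. In arid seedlings all lines of Ag_47114 and Ag_38323 go down and all lines of non_cod_Ag_44017 and Ag_13552 go up to the stem, while the humid lines of non_cod_Ag_44017 part.

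The abundant transcripts lower in leaf held a larger share of the reads in arid stems than in arid leaves. The 11 called ones that averaged 1000 CPM or more in arid stems, of which 8 carry the prefix non_cod, were taken as a group after their values were seen, and so their arid values are a description. They held 0.545%, 1.42% and 1.64% of the reads of arid leaves 1, 2 and 3, against 5.31%, 6.39% and 8.92% of arid stems 1, 2 and 3. Leaves and stems did not overlap, and arid roots, at 0.703%, 0.785% and 2.09%, were near the leaves. Humid libraries entered the choice through the filter, the scaling and the shared spread of the fit, and not through their fold changes. Humid leaves had 1.44%, 1.14% and 1.67%, against 2.60%, 0.540% and 1.61% in humid stems, so that the organs overlapped there. Humid log2 fold changes of the 11 reached from -0.16 to 1.04 with a median of 0.39, against -0.03 for all tested transcripts (-0.19 under upper quartile scaling), and the lowest edgeR adjusted p was 0.14. The difference between the arid and the humid fold change was not called for any of the 11, with edgeR adjusted p-values from 0.087 to 0.26 (unadjusted from 1.5e-05 to 0.00054, low values that the choice on the arid fold change favours). Within the group, the reads of the other 10 amounted to between 1.28 and 1.49 times those of non_cod_Ag_44017 in arid stems and between 1.61 and 2.39 times in arid leaves. Humid stems had from 1.28 to 1.60 and humid leaves from 1.86 to 2.25. The proportions within the group thus did not overlap between leaf and stem in either forest, while the summed level overlapped in the humid forest. Taking non_cod_Ag_44017 for its high level in arid stems favours a low proportion there.

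**Figure D3:**
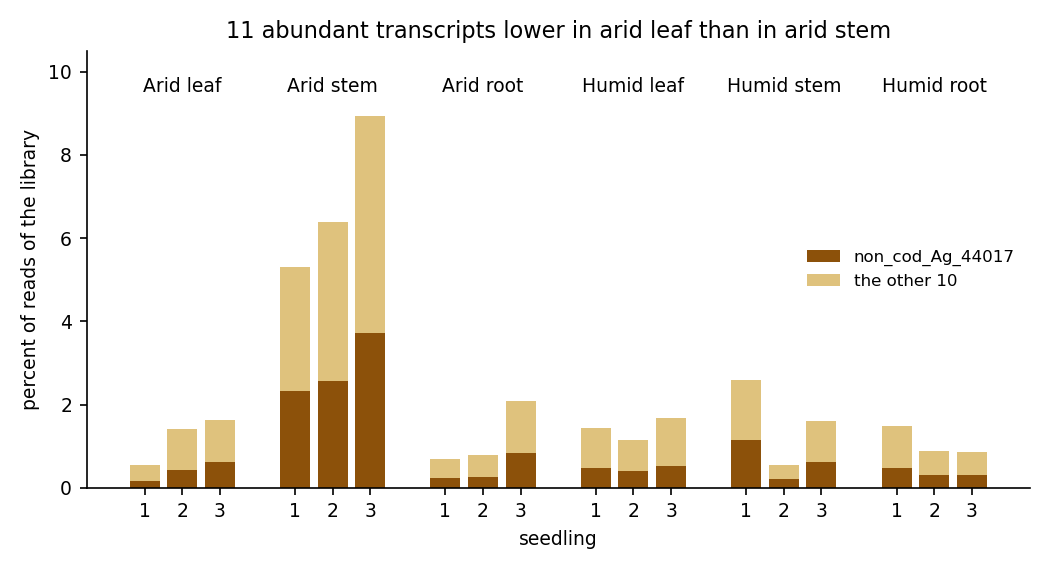
Percent of the reads of each library (vertical axis, from 0) on the 11 abundant transcripts called lower in arid leaf, stacked as non_cod_Ag_44017 and the other 10, for the 18 libraries by group and seedling. The 3 arid stems stand between 5.31% and 8.92%, and every other library is at or under 2.60%.

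Composition was compared in the same pairs. Reads on non_cod transcripts made up 8.57 ± 0.404% of arid leaf libraries and 14.6 ± 2.32% of arid stem libraries (SD, n = 3 each). Leaf was lower in each of the 3 seedlings, by a mean difference of -6.04 percentage points (exact two-sided paired permutation p 0.25, adjusted p 0.25). The 100 transcripts with the most reads, taken anew in each library, held 12.1 ± 1.79% of arid leaf libraries and 19.5 ± 2.82% of arid stem libraries. The mean difference was -7.39 percentage points (SD 2.08, exact paired permutation p 0.25, adjusted p 0.25). With 3 pairs the smallest p is 0.25, so neither measure could pass, and the adjustment covers 2 measures. Scaling factors stood between 0.868 and 1.04 in arid leaves and between 0.787 and 0.981 in arid stems. Whether the composition had a part in the calls was not tested beyond the scaling: under upper quartile scaling, 195 of the 200 transcripts were called again in the same direction.

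Seedlings were then set side by side, on the log2 ratio of leaf to stem with 0.5 CPM added. Of 22054 transcripts with at least 5 CPM in the mean of either organ, 4560 differed at least 4-fold between leaf and stem in some seedling. Leaf was at least 4-fold over stem in 1315, 925 and 1237 transcripts in seedlings 1, 2 and 3, and at least 4-fold under stem in 640, 830 and 1416. Few did so throughout. In all 3 seedlings 109 (0.494%) were at least 4-fold over and 123 (0.558%) at least 4-fold under, and 29 and 42 of these were called. Transcripts over in exactly 1 seedling numbered 1876, and those under in exactly 1 numbered 1365. Leaf was at least 4-fold over stem in seedlings 1 and 3 but not in 2 for 386 transcripts, against 121 for seedlings 2 and 3 without 1 and 130 for seedlings 1 and 2 without 3. For leaf under stem the pattern was another, with 322 in seedlings 2 and 3 without 1, 206 in seedlings 1 and 3 without 2 and 48 in seedlings 1 and 2 without 3. Only 126 were at least 4-fold over in 1 seedling and at least 4-fold under in another. Across the 22054 transcripts, which are not independent, the ratios correlated with r of 0.544 between seedlings 1 and 3, 0.323 between 1 and 2 and 0.379 between 2 and 3.

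Leaving out arid stem 2, the library that stood apart, 1345 of 42567 transcripts (3.16%) passed in edgeR, with 945 higher in leaf (2.22%) and 400 lower in leaf (0.94%), and 192 of the 200 were among them. In the 945, arid leaves 1, 2 and 3 had medians of 12.7, 13.5 and 16.3 CPM, and arid stems 1 and 3 had 1.88 and 2.59 CPM. Arid stem 2, which had no part in that choice, had a median of 10.7 CPM and so lay near the leaves. It exceeded the leaf of its own seedling for 339 of the 945. This count was not set beside the share over all transcripts or beside another stem left out, so how unusual it is was not tested. Humid stems had medians of 10.8, 8.25 and 11 CPM for these transcripts, close to arid stem 2. Arid stems 1 and 3 were low by the choice of the 945 and are not set against them. For those lower in leaf, arid leaves had medians of 6.99, 5.59 and 3.92 CPM, arid stems 1 and 3 had 34.1 and 24.8 CPM, and arid stem 2 had 11.7 CPM, between the others. Without arid stem 2, 61 transcripts were called for a difference of leaf over stem between the arid and the humid forest, 56 with a higher and 5 with a lower log2 fold change in the arid forest, at an edgeR adjusted p of at least 0.033. For the 56, medians in arid leaves 1, 2 and 3 were 14.7, 13.8 and 15.5 CPM, close to the 12.8, 13 and 13.7 CPM of humid leaves. Medians in arid stems 1 and 3 were 2.35 and 2.59 CPM, against 25.2, 19.2 and 23.8 CPM in humid stems. In arid stem 2 the median was 15.5 CPM. The call used the leaves of both forests, the humid stems and arid stems 1 and 3, so the gap between these medians follows from the choice. Arid stem 2 had no part in the call, and its median lay between those of the other arid stems and the humid stems.

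With all libraries, the leaf against stem difference was not called as different between the forests for any transcript by edgeR, with 3379 at an unadjusted p under 0.05, a smallest adjusted p of 0.077 and 422 called by DESeq2. The humid contrast, on other leaf and stem libraries but with the same estimate of the spread, called 1404 transcripts (3.43%), 905 higher and 499 lower in leaf. Of the 91 transcripts higher in arid leaf, 85 had the same sign in the humid forest and 50 were called there in that direction, which is 54.9% of the 91 and 5.52% of the 905. Of the 109 lower in arid leaf, 90 had the same sign in the humid forest and 54 were called there, which is 49.5% of the 109 and 10.8% of the 499. Over all tested transcripts, which are not matched on level, the rates of such humid calls were 2.21% for higher and 1.22% for lower. A transcript with a low shared spread is called more readily in both forests, which favours the overlap. Median humid log2 fold changes were 1.83 for the 91 and -1.57 for the 109. A single transcript was called in opposite directions in the forests.

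**Figure D4:**
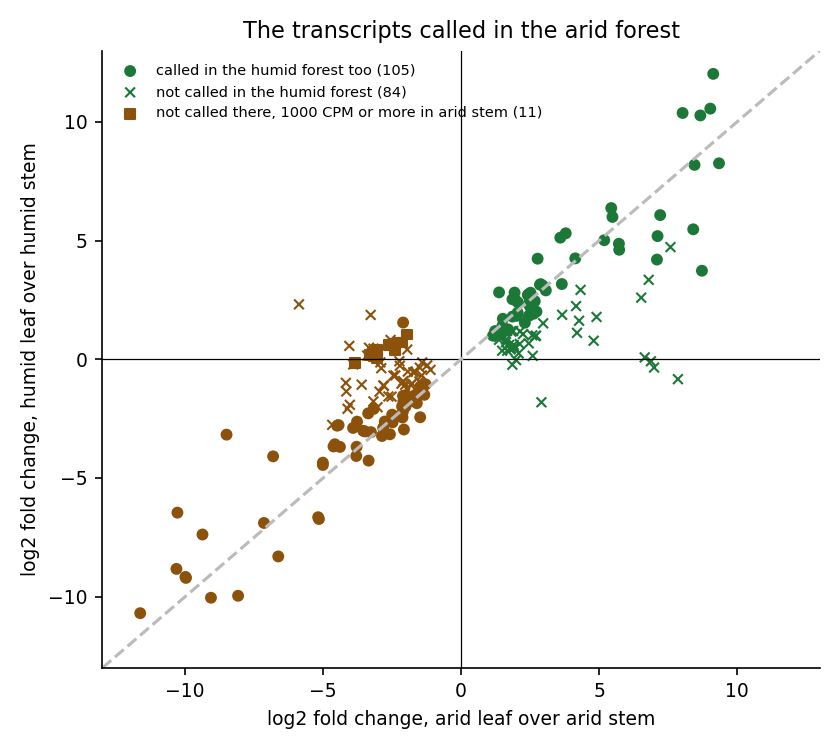
Log2 fold change of leaf over stem in the humid forest (vertical axis) against that in the arid forest (horizontal axis) for the 200 transcripts called in the arid forest, green where higher in arid leaf and brown where lower. Circles mark the 105 called in the humid forest too, crosses 84 not called there, squares the 11 abundant transcripts, which lie between -0.16 and 1.04 on the humid axis, and the dashed line marks equal values.

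Transcripts typical of leaf or stem were also chosen on humid libraries alone and followed in the arid ones. Leaf-typical transcripts, with a humid leaf mean of 50 CPM or more that was at least 8-fold over humid stems (0.1 CPM added), numbered 201. In the arid forest 168 of them had a higher level in leaf by the fitted fold change, with a median log2 fold change of 1.73 (quartiles 0.54 and 3.09), beside 3.72 in the humid forest, where they were chosen, and 0.09 for all transcripts in the arid forest. Arid leaves 1, 2 and 3 had medians of 40.4, 52.9 and 55.8 CPM, and arid stems had 5.58, 21.4 and 11.6 CPM. Arid stem 2 was thus the highest of the arid stems. Humid leaves had 193, 91.5 and 90.8 CPM and humid stems 6.28, 9.15 and 6.46 CPM, values that the choice of the list set high and low, so the forests are not compared on it. Per arid seedling, leaf exceeded stem for 176, 130 and 146 of the 201, with median log2 ratios of 2.43, 0.98 and 1.94. By edgeR 6 (2.99%) were called higher in arid leaf, against 0.223% of all tested transcripts, and 90 had an unadjusted p under 0.05 in that direction, which 10.2% of all tested transcripts had. All tested transcripts are not matched to the list on level. By the higher arid organ mean, 56 of 14645 at 10 to 100 CPM and 11 of 2617 at 100 to 1000 CPM were called higher in leaf. The number called was 29 without arid stem 2, 22 without arid leaf 1, at most 1 without arid leaf 2, arid leaf 3, arid stem 1 or arid stem 3, and 67 by DESeq2. It was 38 without the arid roots, in which the list had medians of 47.1, 11.4 and 11.4 CPM. Arid root 1 thus stood at the level of the arid leaves, and its part in the spread was not tested further.

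Stem-typical transcripts, chosen by the same thresholds in reverse, numbered 30. In the arid forest 27 were lower in leaf by the fitted fold change, with a median log2 fold change of -1.90, beside -3.68 in the humid forest. Arid leaves 1, 2 and 3 had medians of 10.9, 4.01 and 2.84 CPM, and arid stems 26.4, 17.0 and 30.5 CPM. Humid stems, on whose high level the list was chosen, had 92.7, 72.7 and 99.1 CPM. Arid roots, at 38.3, 43.1 and 51.3 CPM, lay above the arid stems. By edgeR 6 of the 30 (20%) were called lower in arid leaf, against 0.267% of all tested transcripts, which are not matched on level. By the higher arid organ mean, 66 of 14645 at 10 to 100 CPM and 16 of 2617 at 100 to 1000 CPM were called lower in leaf. An unadjusted p under 0.05 in that direction was found for 16, against 7.37% of all tested transcripts, and the called members of both lists had their humid sign. The number was 8 without arid stem 2, 2 without arid stem 1, 2 without arid stem 3, 1 without arid leaf 3 and 14 by DESeq2. Median log2 ratios were -0.87, -1.89 and -2.79 in arid seedlings 1, 2 and 3. Seedling 1 had the strongest ratio for the leaf-typical list and the weakest for the stem-typical list.

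**Figure D5:**
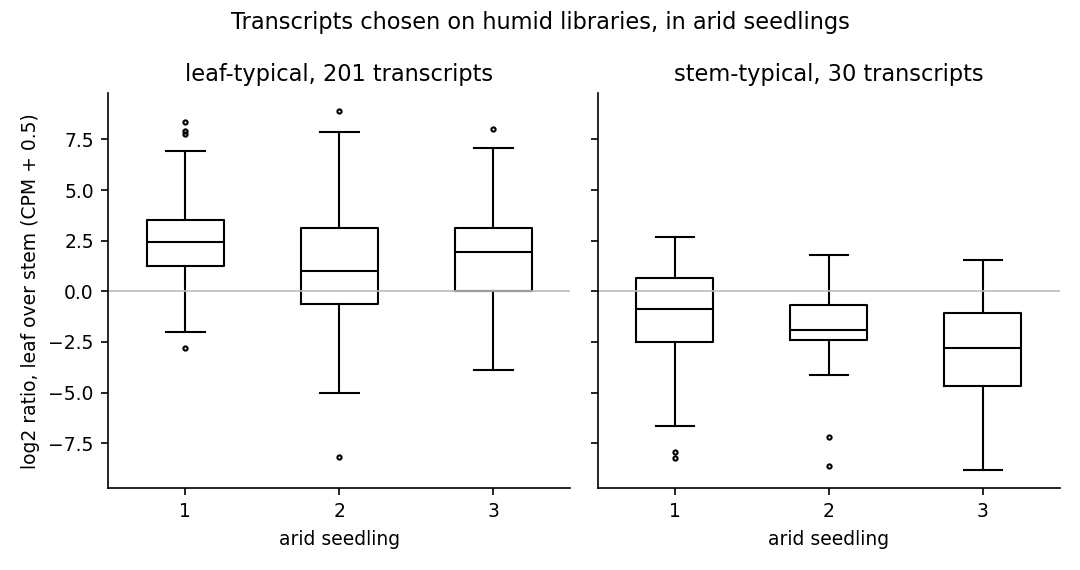
Log2 ratio of leaf over stem (CPM + 0.5) in each arid seedling for 201 leaf-typical and 30 stem-typical transcripts chosen on humid libraries, as boxes with median, quartiles and whiskers to 1.5 times the quartile range. Medians are above 0 in all arid seedlings for the leaf-typical and below 0 for the stem-typical list, with the smallest leaf-typical median, 0.98, in seedling 2.

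Roots placed the called transcripts among the organs. For the 91 higher in leaf, median levels were 24.7, 23.2 and 30.8 CPM in arid leaves 1, 2 and 3, and 2.61, 4.01 and 3.97 CPM in arid stems. Arid roots, at 11.1, 9.23 and 8.37 CPM, lay between. For 64 of the 91 the arid root mean was between the leaf and stem means, against 29.6% of all tested transcripts, whose organ means lie closer together. The 91 were chosen for a gap between leaf and stem, which favours this count. For the 109 lower in leaf, arid leaves had medians of 9.57, 5.37 and 3.24 CPM, arid stems 54.5, 26.6 and 37.5 CPM and arid roots 33.3, 23.7 and 30.8 CPM. Of the 109, the arid root mean exceeded the leaf mean for 97, against 49.3% of all tested transcripts. The 109 were chosen for low leaf values, which favours this count.

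Transcripts found in leaf but not in stem, or in stem but not in leaf, were few and low. No read in any arid stem and at least 10 reads in every arid leaf were found for 18 transcripts, with means from 1.02 to 7.35 CPM in arid leaves. Of these 3 had no read in humid stems either, 5 had none in arid roots, and 4 were called. No read in any arid leaf and at least 10 reads in every arid stem were found for 13, of which 11 were tested, with means from 1.42 to 14.1 CPM in arid stems. Of the 13, 5 had no read in humid leaves either, 1 had none in arid roots, and 4 were called. Among called transcripts, 9 had no read in any arid stem. Against the unscaled floor of 3 counts per library, their leaf means were 4.90-fold to 29.2-fold higher. Another 7 had no read in any arid leaf, and their stem means were 4.71-fold to 54.8-fold above the unscaled floor of the leaves. The means were scaled and the floor was not. With scaling factors from 0.787 to 0.981 in arid stems, bounds on 1 scale are smaller for the 9.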

How the data were processed

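The values are raw counts per transcript that the authors deposited as a table of 18 libraries, with the same values again in 1 file per library. The table's name describes raw counts of uniquely mapped reads, and the submitters' processing notes name Bowtie 0.12.2 and edgeR with no role; a reference transcriptome is not given in the sources used here. In all, 47821 transcripts are listed. Libraries were made from 0.5 µg of total RNA with the TruSeq kit, per the labels' protocols. The same barcodes are listed for 3 sets of 6 libraries, and the list could not be matched to sample names, so pool and organ cannot be told apart if each set was 1 organ.

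Transcripts were filtered by group (minimum count 10, minimum total 15), which left 40897 holding 98.5% or more of each library. The test was edgeR's quasi-likelihood test (edgeR 4.0.16, R 4.3.3) after trimmed mean of M-values scaling. All 18 libraries entered 1 model with the seedling as block, an effect of leaf and root against stem in each forest and 8 residual degrees of freedom. P-values were adjusted over all tested transcripts by the Benjamini-Hochberg method. A positive log2 fold change means a higher level in leaf. Each SE of an edgeR fold change was derived from the test, as the absolute log2 fold change divided by the square root of its F statistic. Pairing follows the series' design text, in which the organs come from the same seedlings. Deviations of log2 CPM (prior count 2) from the group means correlated between arid leaf and stem of a seedling at 0.331, 0.343 and 0.292 in seedlings 1, 2 and 3. Nothing says that seedlings of a forest differ in parentage, so p-values measure the spread between these seedlings. Levels are mean ± SD of scaled CPM.

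Described by identifier are, per direction, the eligible transcript with the highest mean in the higher organ and the one with the largest fold. Eligible were called transcripts with the same sign in 3 seedlings, at least 10 CPM in the higher organ and a read in every arid leaf and stem library. Shares of reads were compared by exact permutation tests in scipy 1.17.1. Plots used matplotlib 3.10.9 under Python 3.11.15. The script was tested on simulated counts. Alternatives were DESeq2 1.42.0, other scalings, filters and library sets, and leaving out libraries. The comparison, lists and tests were chosen with earlier results of these data known.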

Additional observations from a re-analysis of the deposited data

Results flagged for a closer look

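The percent of reads held by the 100 transcripts with the most reads, taken anew in each library, differed between leaf and stem in opposite directions in the forests, in every seedling. In the arid forest leaf minus stem was -6.80, -5.66 and -9.71 percentage points in seedlings 1, 2 and 3. In the humid forest it was 3.40, 2.97 and 2.29 percentage points. The mean difference was lower in the arid than in the humid forest, at -10.3 percentage points. An exact two-sided permutation test of the 3 arid against the 3 humid seedlings gave p = 0.1, the smallest that this design allows, with an adjusted p of 0.1 over 2 measures.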

How the results depend on the processing

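The counts are of called transcripts in edgeR fits, except where DESeq2 is named. Without the seedling as replicate block, 74 were called between arid leaf and stem (42 higher and 32 lower in leaf) and 671 between humid leaf and stem, and 66 of the 74 were among the 200. With only the 6 arid leaf and stem libraries, 35 were called with the block (24 higher, 11 lower) and 3 without it (0 higher, 3 lower, and 3138 at an unadjusted p under 0.05 in the fit without it); these fits have 2 and 4 residual degrees of freedom. Without the arid roots, 301 were called, 167 of them higher in leaf. DESeq2 called 3373 (1758 higher, 1615 lower), 4955 in the humid forest and 422 for the difference between forests. Arid leaf and stem libraries were also left out in turn, singly or as the pair of 1 seedling with its root kept. Counts then ranged from 3 to 1345 in the arid forest, from 2 to 945 for higher and from 1 to 400 for lower in leaf. They ranged from 1323 to 2234 in the humid forest and from 0 to 65 for the difference. The cause was not tested. The fit of the 12 leaf and stem libraries called 175, of which 88 were among the 200. Other scalings in edgeR and other filters gave an arid count within 1.5 times. Upper quartile scaling moved the median difference between forests over all transcripts from 0.05 to 0.17 on the log2 scale. It was -0.02 without the block. None of the 4 transcripts described by identifier, and neither share of reads, changed sign. The mean shares of reads stayed within 1 SD under every alternative tried for them. Library totals limit what could be seen at low levels. The counts for the leaf-typical and stem-typical lists under alternatives were added after the data were seen.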
